A study of Mus musculus with 36 samples.

Results

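Genes of bone morphogenetic protein (BMP) signalling, 10 in all, were followed through the regions of the mouse primitive streak and tail bud. They are the ligand genes Bmp2, Bmp4 and Bmp7, the response genes Id1, Id2, Id3, Msx1 and Msx2, and the inhibitory Smad genes Smad6 and Smad7. Every probe that the array table assigns to 1 of these 10 symbols was taken, which gave 14 probes. The table names 30869 genes, of which 15556 were tested, among them 7 of the 10. Bmp2, Msx2 and Smad7 were not detected on any of the 36 arrays, with lowest detection p-values of 0.106, 0.286 and 0.0321 against a threshold of 0.01, so they have no level here. Of the other 7, by the brightest probe of each gene, Bmp4, Bmp7, Id1, Id2, Id3 and Msx1 were detected on all 36 arrays and Smad6 on 18. A second Bmp7 probe was detected on none, and second probes of Bmp4, Id2 and Msx1 on 4, 14 and 11 arrays.

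BMP ligands are secreted proteins of the TGFβ superfamily that bind pairs of type I and type II receptor kinases. The receptors phosphorylate Smad1, Smad5 and Smad9, which enter the nucleus with Smad4 and act on target genes such as the Id genes, while the inhibitory Smads and secreted antagonists such as noggin and chordin limit the signal. In the mouse embryo Bmp4 is needed for posterior mesoderm, the allantois and the germ cell lineage.

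The study microdissected regions around the node, streak and tail bud to set progenitors of different fates side by side. RNA from 16 regions of wild-type embryos of the outbred MF1 strain was hybridised to Illumina mouse BeadChips, with 3 arrays each for A, NSB, CLE and E11.5 CNH and 2 arrays for each of the other regions. Embryos of E7.5 gave an anterior region (A), a posterior region (P) and, within the posterior streak, a proximal posterior region (PP). Those of E8.5 gave RN from the rostral part of the node, NSB from the border of node and streak, St1 and St5 from the anterior and posterior ends of the streak, and CLE from the epiblast lateral to it. The chordoneural hinge (CNH) was taken at E9.5, E10.5, E11.5, E12.5 and E13.5, and the tissue just posterior to it (P-CNH) at E9.5, E10.5 and E11.5. No group was treated, and all carried the same wild-type genotype. Each array held RNA of between 6 and 74 pooled pieces, so the p-values measure at most the spread between these pools. The pieces were not separated by germ layer, apart from the CLE, and each is a mixture of cell types. Fewer cells that express a gene and less RNA per cell cannot be told apart in such samples.

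The labels place the arrays in 3 batches of 12. Batch 1 held all St1, St5 and RN arrays, all E10.5 arrays (CNH and P-CNH) and 2 of the 3 NSB arrays. NSB replicate 3, in batch 3, is the only array that ties batch 1 to the others. Every comparison of a batch 1 region with a region of batches 2 and 3 therefore rests on it. An array of batch 1 detected 15481 to 16256 probes, one of batch 2 detected 11062 to 15388 and one of batch 3 detected 10814 to 16241. The number of arrays limits the precision of every value.

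Levels are normalised log2 intensities of the brightest probe of each gene, and differences are log2 differences between fitted region means with batch as a term, so that a difference can depart from that of the plain array means. A probe was called in a comparison where its limma p-value, once adjusted, did not exceed 0.05 and its fold change reached 1.5 or more. Levels of different probes are not on a common scale and are not set against each other. Counts of genes with an unadjusted limma p under 0.05 are also given below. They are not calls. The share of all probes under that threshold was not computed, and the shares printed beside them are of called probes. In limma's F test across all regions 7 of the 7 detected genes were called, against 35.6% of all tested probes. The second Id2 probe was not called in it (adjusted p = 0.0639). Over 24 comparisons between regions, 33 of the 168 gene differences were called, in 10 of the comparisons. The share of all probes called in either direction ran from 0.0276% to 9.33% over the 24. Comparisons share arrays, such as those of St5, so the 33 calls are not independent.

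Bmp4, a ligand gene needed for posterior mesoderm, had its highest fitted level in the posterior streak. At E8.5 its log2 intensity was 11.67 and 11.91 in St5. The 10 arrays of RN, NSB, CLE and St1 had a lowest value of 7.51, a median of 8.48 and a highest of 10.60. Both St5 arrays lay above all 10 others, and St5 was apart from them, above or below, in 13.4% of all probes. The upper end of the other arrays was formed by CLE, at 8.74, 10.52 and 10.60.

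At E7.5 Bmp4 was highest in PP, at 11.12 and 10.76. It was 9.22 and 9.19 in P and 7.75, 8.09 and 8.74 in A. These 3 regions did not overlap. PP was apart from A and P in 18.5% of all probes, and P from A in 25.8%. In the tail bud it lay between 7.81 and 9.22 on the CNH arrays from E9.5 to E12.5, and at 11.77 and 10.60 at E13.5.

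The order of fitted Bmp4 means ran from St5 (12.16) through E13.5 CNH (11.00), PP (10.61) and CLE (9.72) to NSB (8.16) and A (8.06), a range of 4.11. St5 lay above 14 of the 15 other regions beyond the 95% interval of the difference. The exception was E13.5 CNH, where the difference was 1.17 with an interval of −0.30 to 2.64. Here and below such intervals are not adjusted for the number of comparisons, so a region beyond one need not have been called. CLE and PP are among the 14, although Bmp4 was not called in St5 against either. Among the 15 pairs of neighbours in this order the interval held 0 in 14, PP over CLE being the exception at 0.89 (0.04 to 1.74).

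Bmp7, a ligand gene with broad expression in early embryos, was spread differently. Its fitted means were highest in E13.5 CNH (10.10) and St5 (9.81), followed by E12.5 CNH (9.20) and RN (9.00), and lowest in E9.5 P-CNH (6.91) and E9.5 CNH (6.88), a range of 3.21. The places of RN and of the lowest regions turn on the batch term, since the plain mean of RN was 8.15 and the lowest plain means were those of E10.5 P-CNH (6.98) and St1 (7.17). E13.5 CNH lay above 14 of 15 regions beyond the interval, all but St5 (0.28, −0.80 to 1.37), while no pair of neighbours differed beyond it. The plain mean of St5 (8.96) lay below those of E13.5, E12.5 and E11.5 CNH (10.52, 9.63 and 9.39), E11.5 P-CNH (9.49) and A (8.99). On single arrays Bmp7 was 9.12 and 8.81 in St5, 7.24 and 7.10 in St1 and 8.20 and 8.10 in RN. NSB gave 7.94 and 8.27 in batch 1 and 9.45 in batch 3, a spread that covers both St5 values.

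Id1, Id2 and Id3 encode helix-loop-helix proteins without a DNA-binding domain, which hold back basic helix-loop-helix factors, and are direct targets of the Smads that BMP receptors activate in many cells. The fitted mean of each was highest in St5, at 11.77 for Id1, 9.75 for Id2 and 10.45 for Id3, with ranges over the 16 regions of 1.89, 2.5 and 2.74. For Id1 and Id3 the next region was E13.5 CNH (11.03 and 9.75), and St5 lay above the remaining 14 regions beyond the interval. These include CLE and PP, against which neither gene was called. Without NSB replicate 3 the Id3 difference of St5 was −0.45 against CLE and 0.08 against PP. The place of St5 for Id3 comes with the batch term, since its plain mean of 9.49 lies below those of E13.5 CNH (10.23), CLE (9.99), E11.5 P-CNH (9.82), A (9.58) and PP (9.55). For Id2 the next region was E9.5 CNH (9.68), 0.07 below St5, although the plain means were 10.67 in St5 and 8.63 in E9.5 CNH, and 8 of the 15 regions lay below St5 beyond the interval. The lowest places turn on the batch term in all 3 genes: by fitted means they fall to E9.5 CNH for Id1 (9.87), E9.5 P-CNH for Id3 (7.71) and St1 for Id2 (7.25), and by plain means to St1 (9.76), E10.5 CNH (7.83) and P (6.91).

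Msx1 encodes a homeodomain transcriptional repressor found in posterior mesoderm and neural crest. Its fitted means were highest in St5 (12.51), CLE (12.13), PP (11.90) and E11.5 P-CNH (11.46) and lowest in RN (9.52), E10.5 CNH (8.91) and A (7.65), a range of 4.87. St5 lay beyond the interval above 7 of the 15 regions, and CLE and PP were not among them. Smad6, which blocks the receptors and the receptor-activated Smads, had its highest mean in St5 (7.64), then in PP (7.04) and P (6.85). Only 6 regions lay beyond the interval below St5. Neighbours in the order did not differ beyond the interval for any pair of Id1, Id2, Id3, Msx1 or Smad6.

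**Figure D1:**
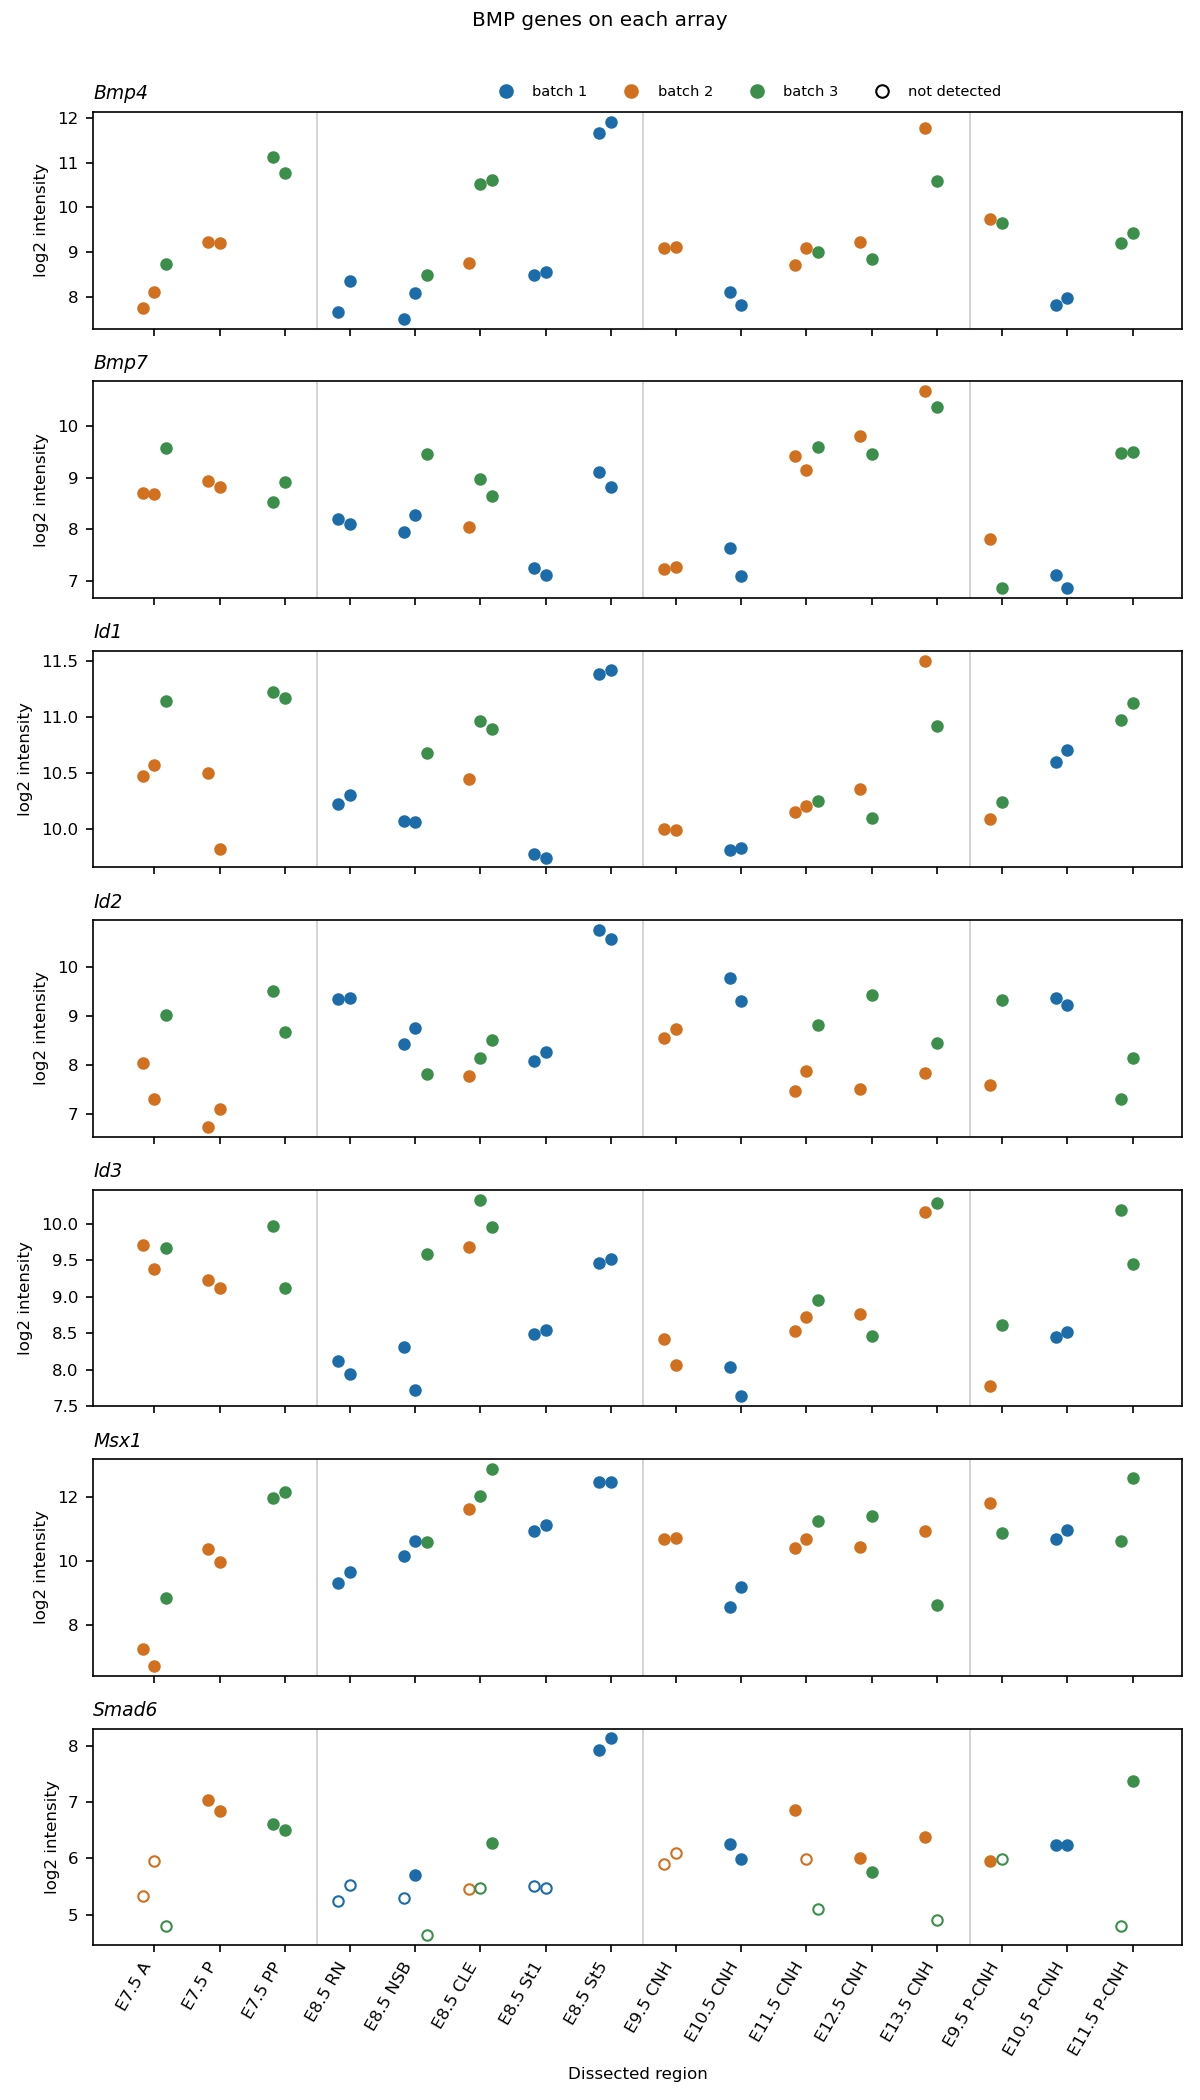
Normalised log2 intensity of the 7 detected genes on each of the 36 arrays (vertical axis), by region from E7.5 to E13.5 (horizontal axis), with colour for batch and hollow points where the probe was not detected. Bmp4 reached 11.67 and 11.91 in St5, and Smad6 was detected on 18 arrays.

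**Figure D2:**
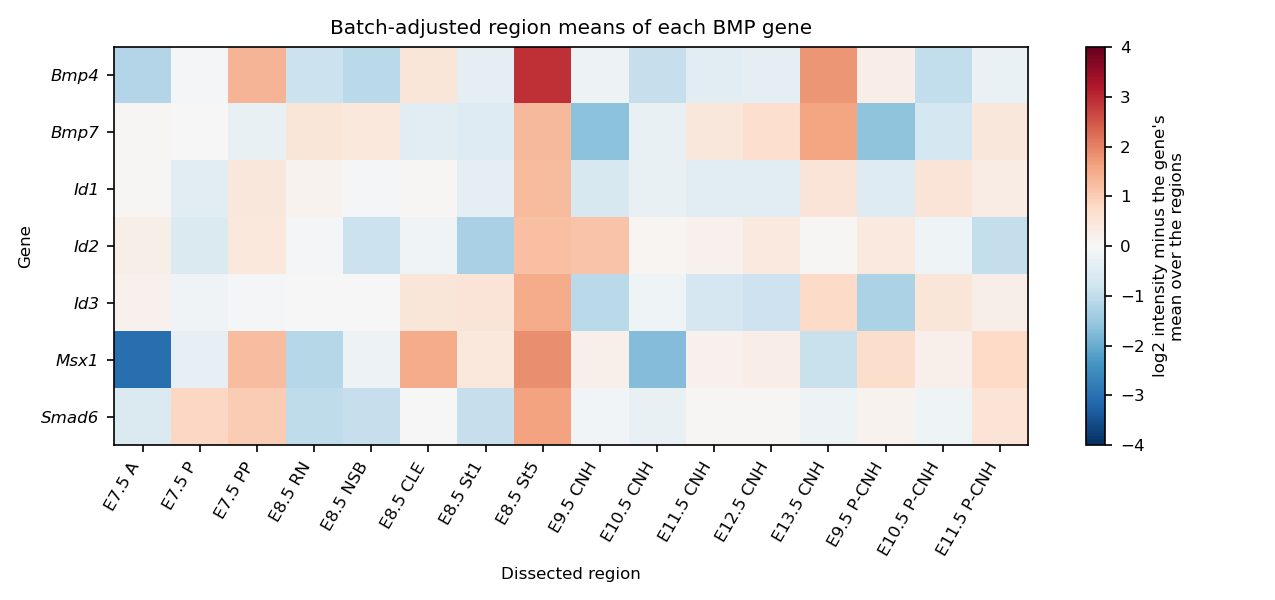
Heat map of the fitted region means of the 7 genes over 16 regions, each as the log2 difference from the gene's own mean. With the batch term St5 held the highest mean of every gene but Bmp7 (E13.5 CNH, 10.10), and for Id3 its plain mean (9.49) was not the highest.

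RefSeq promoters of the GRCm38.p6 build, from 250 bases before to 50 after the start of transcription, were found for 6 of the 10 genes, and not for Bmp2, Bmp7, Id1 and Smad7. Each was searched on both strands for 3 Smad motifs: the GC-rich element GGCGCC, held by 11.9% of 32851 promoters, the Smad box CAGAC, which reads as GTCTG on the opposite strand, held by 49.6%, and the Smad palindrome GTCTAGAC, held by 0.213%. These letters do not overlap each other in the promoters shown. The promoters of Bmp4 (chr14:46390620-46390919, minus strand), Msx1 (chr5:37824536-37824835, minus strand) and Msx2 (chr13:53472731-53473030, minus strand) held none of the 3, which says only that these letters are not in the window. The promoters below are those with a match, from genes called higher together in St5. That of Id2 (chr12:25096043-25096342, minus strand) held 1 GC-rich element, 231 bases before the start. That of Id3 (chr4:136143572-136143871, plus strand) held 2 Smad boxes, 167 bases before the start and, on the opposite strand, 68 before it. That of Smad6 (chr9:64022010-64022309, minus strand) held the palindrome, whose first base lies 4 bases before the start, so that it runs across the start. Capitals mark the matches, read 5′ to 3′ along the gene. A match is a description of the letters and shows neither binding nor a cause.
Id2: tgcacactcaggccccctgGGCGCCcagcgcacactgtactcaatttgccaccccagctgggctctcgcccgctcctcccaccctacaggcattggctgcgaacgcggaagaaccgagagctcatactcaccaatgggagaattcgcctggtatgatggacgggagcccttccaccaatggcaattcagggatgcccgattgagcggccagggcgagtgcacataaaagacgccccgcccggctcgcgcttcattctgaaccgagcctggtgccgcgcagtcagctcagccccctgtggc
Id3: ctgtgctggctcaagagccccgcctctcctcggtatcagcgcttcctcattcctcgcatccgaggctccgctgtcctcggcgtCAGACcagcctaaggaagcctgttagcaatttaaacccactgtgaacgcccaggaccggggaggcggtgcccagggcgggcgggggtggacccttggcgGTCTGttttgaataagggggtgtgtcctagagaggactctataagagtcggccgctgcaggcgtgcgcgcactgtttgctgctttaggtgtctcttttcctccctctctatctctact
Smad6: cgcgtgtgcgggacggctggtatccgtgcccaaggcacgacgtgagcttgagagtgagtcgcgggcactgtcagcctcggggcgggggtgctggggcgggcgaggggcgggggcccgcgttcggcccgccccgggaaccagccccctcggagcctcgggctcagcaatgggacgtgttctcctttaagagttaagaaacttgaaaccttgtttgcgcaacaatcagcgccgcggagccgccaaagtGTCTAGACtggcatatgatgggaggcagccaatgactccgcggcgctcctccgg

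Bmp4, Bmp7, Id1, Id2, Id3 and Smad6 were called higher in St5, the posterior end of the streak, than over the averaged E8.5 neighbours. Against the mean of RN, NSB, CLE and St1, 6 of the 7 genes were called higher in St5 and none lower, where 2.73% of all tested probes were called higher. Bmp4 stood 10.4-fold higher, Id2 3.51-fold, Id1 2.51-fold, Bmp7 2.45-fold and Id3 2.34-fold. For Smad6, which 2 of the 10 other arrays detected, no fold is given, and its log2 differences below are fitted mostly to background readings and measure no exact size. Msx1 missed the threshold. The median difference of the 7 was 1.72, beside −0.00 for all probes.

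Id2 was 10.75 and 10.58 in St5, and its lowest, median and highest values over the 10 other E8.5 arrays were 7.77, 8.34 and 9.37. Id1 was 11.38 and 11.42 in St5 against 9.75, 10.27 and 10.96. Smad6 was 7.92 and 8.13 in St5 against 4.63, 5.47 and 6.28, and only 2 of those 10 arrays detected it. For all 3 genes, as for Bmp4, both St5 arrays were above every other E8.5 array. St5 was apart from the other E8.5 arrays, above or below, in 13.4% of all probes.

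Id3 was 9.47 and 9.52 in St5, against 7.72, 8.52 and 10.33 on the other E8.5 arrays. Bmp7 was 9.12 and 8.81 in St5, against 7.10, 8.15 and 9.45. Msx1 was 12.49 and 12.48, against 9.33, 10.80 and 12.89. In these 3 genes the groups overlapped. The 3 CLE arrays and NSB replicate 3 lay above St5 for Id3, 1 CLE array did so for Msx1, and NSB replicate 3 did so for Bmp7.

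In limma the Bmp4 difference was 3.38 (SE 0.389, adjusted p = 2.54e-06). It was 1.33 for Id1 (SE 0.210, adjusted p = 0.000163), 1.81 for Id2 (SE 0.310, adjusted p = 0.000395) and 2.33 for Smad6 (SE 0.484, adjusted p = 0.00293). Id3 differed by 1.23 (SE 0.261, adjusted p = 0.00365) and Bmp7 by 1.29 (SE 0.287, adjusted p = 0.00534). Msx1 gave 1.72 (interval 0.51 to 2.94, adjusted p = 0.110), while a dimmer Msx1 probe, detected on 5 of the 10 other E8.5 arrays, was called at 1.88 (adjusted p = 0.000468).

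Within batch 1 alone, which leaves out CLE and NSB replicate 3, 7 of 7 genes were called higher, where 6.33% of all probes were. The differences there were 3.69 for Bmp4 (adjusted p = 1.18e-07), 2.57 for Smad6, 2.17 for Msx1 (adjusted p = 3.97e-06), 1.96 for Id2, 1.37 for Id1, 1.31 for Id3 and 1.15 for Bmp7 (adjusted p = 0.000191). Without the batch term Bmp7 (0.86, adjusted p = 0.140) and Id3 (0.73, adjusted p = 0.296) were not called. Leaving out St5 replicate 1 ended the call of Bmp7 (1.14, adjusted p = 0.142), and leaving out St5 replicate 2 ended those of Id3 (1.20, adjusted p = 0.0704) and Smad6 (2.22, adjusted p = 0.0702). Msx1 was called without either E13.5 CNH array (1.69, adjusted p = 0.0254) or without NSB replicate 3 (1.71, adjusted p = 0.0492).

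Set against single regions, St5 exceeded the node, the border and the anterior streak in most of the 7 genes, and none was called against CLE. The comparisons share the St5 arrays and are given side by side. Against RN, 6 of 7 were called higher (2.46% of all probes; median difference 1.47 against 0.02), against NSB 5 (2.12%; 2.07 against 0.02), and against St1 5 (1.93%; 1.79 against −0.01). Within batch 1 alone 7 of 7 were called against each of the 3, where 7.65%, 6.44% and 6.24% of all probes were higher.

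Bmp4 differed by 3.79 against RN (adjusted p = 2.29e-06), 4.00 against NSB (adjusted p = 1.14e-06) and 3.28 against St1 (adjusted p = 4.43e-05). Id1 gave 1.13, 1.33 and 1.63 in the same order, with adjusted p-values of 0.00299, 0.000625 and 0.000126. All of these groups were apart, as were 59.5%, 38.8% and 57.9% of all probes in the same order. Id2 gave 1.31, 2.08 and 2.5 (adjusted p = 0.0238, 0.000325 and 8.03e-05). Its RN level, 9.35 and 9.37, was the nearest to St5. A call of Id2 against RN did not survive the loss of RN replicate 1 (1.29, adjusted p = 0.151), RN replicate 2 (1.32, adjusted p = 0.137), St5 replicate 1 (1.22, adjusted p = 0.196) or St5 replicate 2 (1.39, adjusted p = 0.104), nor did its second probe pass (0.87, adjusted p = 0.227), and it was also lost without the batch term (adjusted p = 0.412) and with BeadChips as random blocks (adjusted p = 0.0524).

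Id3 was called against RN (1.47, adjusted p = 0.00196) and NSB (1.48, adjusted p = 0.00204) and reached 0.98 against St1 (adjusted p = 0.0858). On single arrays it was 8.11 and 7.94 in RN, 8.49 and 8.54 in St1, and 8.31, 7.72 and 9.58 in NSB. NSB replicate 3 lay above both St5 arrays. The Id3 call against NSB was lost without NSB replicate 2 (1.18, adjusted p = 0.0852) and without the batch term (0.95, adjusted p = 0.219). Bmp7 was called against St1 (1.79, adjusted p = 0.00138), with St1 below every other E8.5 array, and gave 0.81 against RN (adjusted p = 0.228) and 0.86 against NSB (adjusted p = 0.201).

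Msx1 was called against RN (2.99, adjusted p = 0.00496), where it was 9.33 and 9.65, and gave 2.07 against NSB (adjusted p = 0.0883) and 1.44 against St1 (adjusted p = 0.499). It was 10.18, 10.64 and 10.62 in NSB and 10.96 and 11.13 in St1, all below both St5 arrays. The RN call ended without RN replicate 1 (2.83, adjusted p = 0.0658). A call against NSB appeared without any one of E13.5 CNH replicate 1 or 2 (2.07, adjusted p = 0.0148) and E11.5 P-CNH replicate 1 or 2 (2.07, adjusted p = 0.0442).

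Smad6 was called against RN (2.64, adjusted p = 0.00269), NSB (2.53, adjusted p = 0.00445) and St1 (2.54, adjusted p = 0.00710). It was detected on no array of RN or St1, where only a bound can be given: St5 stood at least 5.51-fold above RN and at least 5.33-fold above St1. Such a bound sets the brighter group's mean against the lowest detected signal of each array of the other group, or the probe's own signal where that was higher. The NSB call was lost without NSB replicate 1 (2.32, adjusted p = 0.0767) or St5 replicate 2 (2.42, adjusted p = 0.0619). The St1 call was lost without St1 replicate 1 (2.56, adjusted p = 0.0696) or 2 (2.52, adjusted p = 0.0752) and without St5 replicate 1 (2.65, adjusted p = 0.0505) or 2 (2.43, adjusted p = 0.101).

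No gene passed the test between St5 and CLE, the epiblast beside the streak. In limma 0 of 7 were called against it, where 1.08% of all probes were called higher. Before adjustment 5, Bmp4, Bmp7, Id1, Id2 and Id3, had a p under 0.05, a threshold for which no share of all probes was computed. The median difference was 1.36 against −0.01 for all probes. Bmp4 gave 2.44 (SE 0.680, adjusted p = 0.0828). Bmp7 gave 1.71, Id1 1.21, Id2 1.36, Smad6 1.61 and Id3 0.98, and Msx1 gave 0.39 with an interval of −1.74 to 2.52.

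The array values of Id3 run the other way. Id3 was 9.68, 10.33 and 9.95 in CLE, all above the St5 values, with plain means of 9.99 and 9.49, and the sign of the fitted difference comes with the batch term. Msx1 was 11.64, 12.05 and 12.89 in CLE, on either side of St5. No batch holds St5 and CLE together, so no within-batch value can be given. Bmp4 was called against CLE without CLE replicate 2 (2.71, adjusted p = 0.0442), CLE replicate 3 (2.76, adjusted p = 0.0413), either E13.5 CNH array (2.36, adjusted p = 0.0348) or NSB replicate 3 (1.89, adjusted p = 0.00202). Without NSB replicate 3 no batch offset could be fitted for batch 1. Id2 (2.73, adjusted p = 3.65e-06), Smad6 (2.19, adjusted p = 0.00351) and Id1 (0.65, adjusted p = 0.0381) were then called as well. Bmp7 fell to 0.44 and Id3 stood at −0.45.

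**Figure D3:**
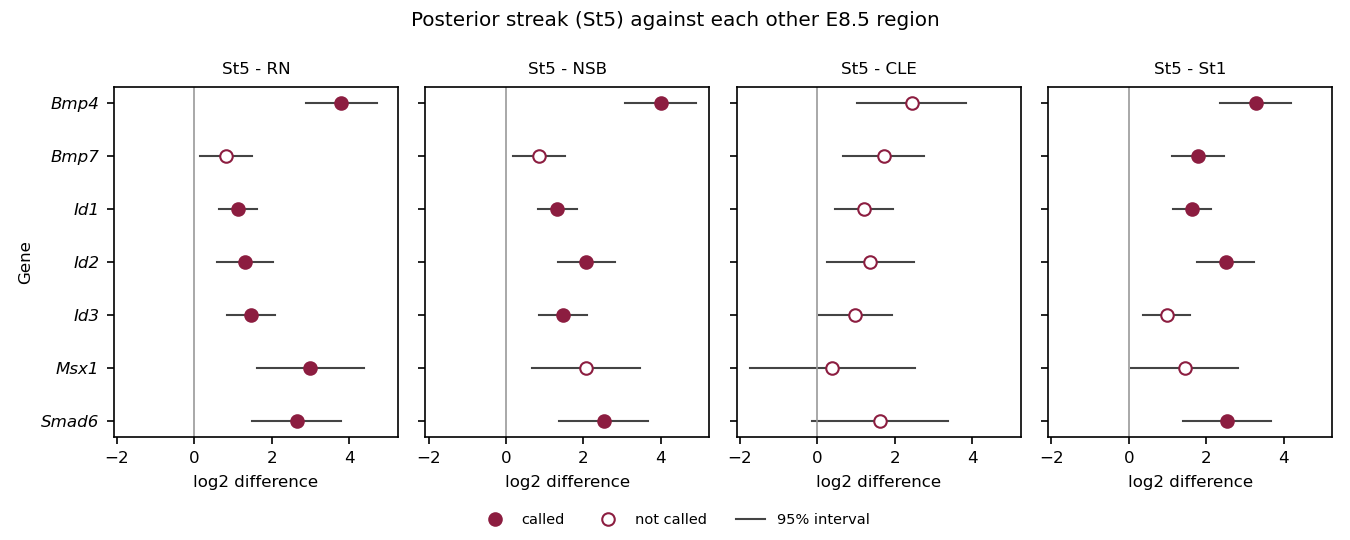
Log2 difference of each of the 7 genes between St5 and RN, NSB, CLE or St1 (points), with 95% intervals as bars and filled points where the gene was called. All 7 genes lie above 0 in the 4 comparisons, and no point is filled against CLE.

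Other genes of the pathway, 57 in 6 lists of which 37 were tested, moved in St5 mainly among response genes and antagonists. Against the other E8.5 regions, 12 were called higher and 3 lower, beside 2.73% and 2.74% of all probes. Of 13 other response genes 10 were higher, namely Id4, Hand1, Hand2, Gata2, Gata3, Gata6, Dlx3, Tbx3, Isl1 and Hey1, and Atoh8, Gata4 and Msx3 were not called. Hand2 was detected on 2 arrays, both of St5, and passed the filter only through them. Its call, here and in the counts against RN, NSB and St1 below, was therefore set by the filter. Of 9 membrane and secreted antagonists, Bmper was higher and Nog, Chrd and Fst, which encode the extracellular inhibitors noggin, chordin and follistatin, were lower by −2.24 (at least 3.61-fold), −1.91 and −1.44. Skil was higher among 4 intracellular inhibitors, at 1.05. None of 6 receptors, 3 other ligands or 2 signal transducers was called.

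The largest of these differences were those of Isl1 (5.30, SE 0.267, adjusted p = 1.36e-11), Tbx3 (5.11, SE 0.641, adjusted p = 8.62e-06), Bmper (4.68, SE 0.474, adjusted p = 4.42e-07) and Hand1 (4.02, SE 0.335, adjusted p = 3.17e-08), with both St5 arrays above the other 10 in each. Hand1 was detected on none of those 10, so that its bound is at least 7.05-fold. Of the 37 genes, 11 were higher and 4 lower against RN (2.46% and 3.59% of all probes), led by Bmper (4.94), Isl1 (4.73), Tbx3 (4.52) and Hand1 (4.00, at least 9.34-fold). Against NSB 11 were higher and 2 lower (2.12% and 3.09%), led by Tbx3 (5.53, at least 24.1-fold), Isl1 (5.43, at least 24.4-fold), Bmper (5.11, at least 20.1-fold) and Gata2 (4.55, at least 13.6-fold), and against St1 12 and 1 (1.93% and 1.34%), led by Isl1 (5.08, at least 29.8-fold), Tbx3 (5.06), Bmper (4.85) and Gata2 (4.34, at least 16.6-fold). Against CLE, where 0 of the 7 genes above was called, 7 were higher and 0 lower (1.08% and 0.401%), among them Isl1 (5.96, at least 15.6-fold), Gata6 (5.44, at least 11.7-fold), Tbx3 (5.35, at least 15.4-fold) and Hand1 (3.87, at least 4.72-fold).

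**Figure D4:**
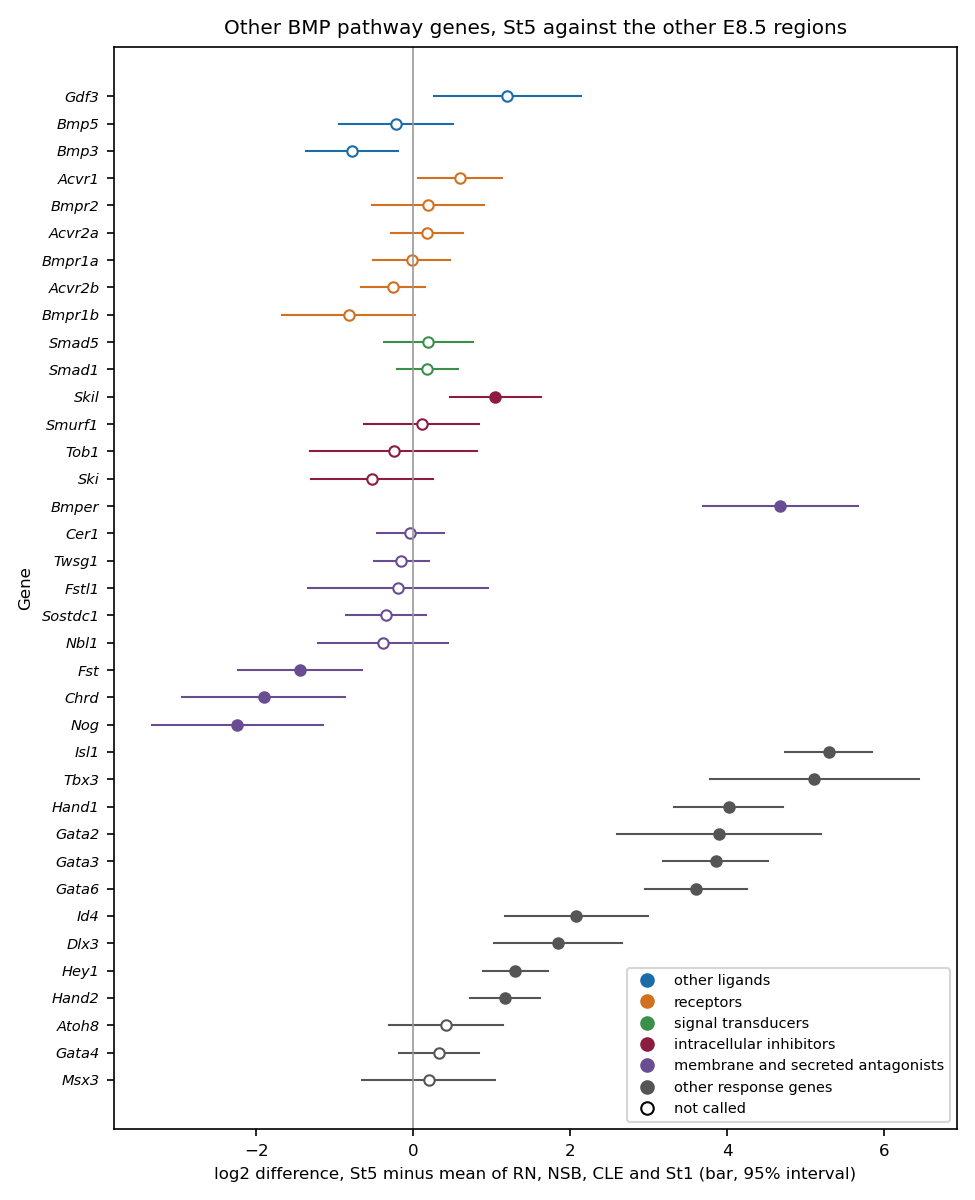
Log2 difference between St5 and the averaged RN, NSB, CLE and St1 for the 37 tested genes of the other BMP pathway lists, coloured by list. Isl1 (5.30) and Tbx3 (5.11) lie highest and Nog (−2.24) lowest of those called.

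Markers of other cell types moved with these differences. All 5 tested genes of the allantois and lateral mesoderm list were higher in St5. Hand2 was detected on the 2 St5 arrays alone, so that it was tested only through them and its call was set by the filter. Tbx20 was not detected and Foxf1 has no probe, and Hand1, Hand2 and Isl1 belong also to the response genes. The summed intensity of that list, led by Isl1, was 5830 and 7183 in St5, and on the other E8.5 arrays 296.7 and 299.9 in RN, 196.0, 175.2 and 190.3 in NSB, 239.9, 215.7 and 143.2 in CLE, and 260.8 and 217.4 in St1. Of 6 tested endothelial genes, Cdh5, Tek, Flt1 and Esam were higher and Kdr was not detected. Their sum, led by Esam, was 1661 and 1996 in St5, 405 and 434 in RN, 442, 463 and 372 in NSB, 335, 471 and 251 in CLE and 438 and 415 in St1. Streak markers gave 3 higher (Mixl1, Mesp1 and Evx1) and 1 lower (Nkx1-2) of 7, and node, neural and paraxial lists gave 2 of 6, 2 of 3 and 1 of 4 lower. None of 6 blood, 7 visceral endoderm and 7 surface ectoderm markers was called. Against CLE alone 4 of 5 allantois and lateral mesoderm markers, 2 of 6 endothelial markers, Ttr and Mixl1 were higher. Against RN alone 4 of 6 node, 3 of 3 neural, 2 of 6 blood and 1 of 4 paraxial markers (Meox1) were lower. Of 7 streak markers 5 were higher and 1 (Nkx1-2) lower. Lower markers were 4 of 6 node, 2 of 3 neural and 1 of 4 paraxial ones (Meox1) against NSB, and 2 of 4 paraxial ones against St1. Of 7 streak markers 2 (Mixl1 and Mesp1) were higher and 1 (Nkx1-2) lower against each of NSB and St1. The part of these cells in the BMP gene levels was not tested.

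No gene passed the full fit between the node and the anterior streak, and 3 of 7 did within batch 1. Between RN and St1, both wholly in batch 1, limma called 0 of 7 (2.24% of all probes in either direction), with a median difference of −0.10 against −0.03. Id2, Bmp7 and Id1 higher and Msx1 lower in RN had an unadjusted p under 0.05, 4 genes in all. Id2 was 9.35 and 9.37 in RN and 8.07 and 8.26 in St1 (1.19, adjusted p = 0.0982), and Bmp7 was 8.20 and 8.10 against 7.24 and 7.10 (0.98, adjusted p = 0.198). Msx1 was 9.33 and 9.65 against 10.96 and 11.13 (−1.55, adjusted p = 0.595). The arrays of the 2 regions were apart in 6 of the 7 genes, all but Smad6, and in 50.0% of all probes.

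Within batch 1 alone 3 were called, where 5.06% of all probes were higher and 2.98% lower: Id2 (1.19, adjusted p = 0.000656), Bmp7 (0.98, adjusted p = 0.00587) and Msx1 (−1.55, adjusted p = 0.000656). The differences equal those of the full fit and only their errors changed. Bmp4, at −0.51, and Smad6, at −0.10, were not called in either. Of the 37 other pathway genes, the antagonist genes Nog (3.04, adjusted p = 0.00323) and Chrd (2.55, adjusted p = 0.0113) and the ligand gene Bmp3 (2.5, adjusted p = 2.25e-05, at least 2.77-fold) were higher in RN and the antagonist gene Fst (−1.86, adjusted p = 0.0164) lower, each with both arrays on 1 side. Node and notochord markers were higher in RN for 4 of 6 (Noto, Shh, Foxa2 and Chrd), with sums led by T of 10159 and 12402 against 5711 and 7087 in St1. Streak markers were lower for 4 of 7, with sums led by T, which is in both lists, of 8188 and 10722 against 30311 and 32484. Neural markers were higher for 2 of 3 (Otx2 and Olig3) and Krt8 for 1 of 7 surface ectoderm markers, and of 4 paraxial markers Meox1 was higher and Tbx6 lower. Their part was not tested.

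At E7.5 Bmp4 and Msx1 were higher in the proximal posterior region than over the averaged A and P, though neither was called against P alone. Against the mean of A and P, 2 of 7 genes were called higher in PP (1.99% of all probes), with a median difference of 0.65 against −0.01. Msx1 was 11.97 and 12.18 in PP, 10.37 and 9.97 in P and 7.26, 6.72 and 8.84 in A. For Msx1, as for Bmp4, the 3 regions formed 3 separate steps. In 18.5% of all probes PP was apart from A and P, and in 25.8% P was apart from A. The difference was 2.00 for Bmp4 (SE 0.421, adjusted p = 0.00598) and 2.92 for Msx1 (SE 0.636, adjusted p = 0.00797). Id1 gave 0.65 (adjusted p = 0.142), Id2 0.59, Smad6 0.88, Id3 −0.05 and Bmp7 −0.32.

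Id1 was 11.22 and 11.17 in PP, 10.4998 and 9.82 in P and 10.47, 10.57 and 11.14 in A, so that PP lay above the others, by little over A replicate 3. Id2 was 9.51 and 8.67 in PP, 6.73 and 7.10 in P and 8.04, 7.29 and 9.02 in A, with overlap between PP and A. Id3 was 9.97 and 9.12 in PP and overlapped A and P, which ran from 9.12 to 9.71. Bmp7 was 8.53 and 8.92 in PP and overlapped A, at 8.71, 8.68 and 9.57.

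Against A alone Bmp4 (2.56, adjusted p = 0.000386) and Msx1 (4.25, adjusted p = 0.000123) were called, 2 of 7 (3.14% of all probes; median difference 0.39 against −0.03). Against P, limma called 0 (0.391%; median 0.91 against 0.01) and 4, Bmp4 (1.45), Msx1 (1.58), Id1 (0.91) and Id2 (0.99), had an unadjusted p under 0.05. Smad6 was 6.62 and 6.5 in PP and was detected on no A array, which gives at least 1.42-fold (1.58, adjusted p = 0.0966). It was called against A without either E11.5 P-CNH array (adjusted p = 0.0106).

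The second probes of Bmp4 (1.01, adjusted p = 0.216) and Msx1 (1.11, adjusted p = 0.0953), each detected on 1 of the 2 PP arrays and on none of A or P, were not called in PP against A and P. Both PP arrays are in batch 3 with 1 array of A, and within it neither Bmp4 (2.20, adjusted p = 0.259) nor Msx1 (3.24, adjusted p = 0.625) was called, but with 3 residual degrees of freedom no probe of the array was. Over the arrays of A, P and PP alone neither was called (1.56, adjusted p = 0.117, and 1.65, adjusted p = 0.138), where 0.0737% of all probes were higher, and with BeadChips as random blocks Msx1 was not (2.28, adjusted p = 0.0542). The Bmp4 call ended without PP replicate 1 (1.82, adjusted p = 0.134), and that of Msx1 without PP replicate 1 (3.02, adjusted p = 0.0848) or 2 (2.82, adjusted p = 0.0702). Id1 was called without P replicate 1 (0.82, adjusted p = 0.0442) or A replicate 3 (0.85, adjusted p = 0.0347), and against P without A replicate 3 (1.03, adjusted p = 0.0378), as was Bmp4 against P without CLE replicate 1 (1.81, adjusted p = 0.0247).

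Between P and A, 1 of 7 genes was called in limma (1.52% of all probes; median difference −0.06 against −0.04). Msx1 was higher in P by 2.67 (SE 0.621, adjusted p = 0.0168), with both P arrays above all 3 of A. The arrays of P and A were apart in 25.8% of all probes. Unadjusted p-values under 0.05 were found for 5 genes, Bmp4 (1.11), Msx1 and Smad6 (1.39) in the direction of P and Id2 (−0.81) and Id1 (−0.53) in that of A. Smad6 was 7.04 and 6.85 in P and not detected in A, at least 1.85-fold. In batch 2 alone Msx1 (3.18, adjusted p = 0.00224) and Bmp4 (1.28, adjusted p = 0.0382) were called, where 1.14% of all probes were higher.

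The Msx1 call between P and A ended without A replicate 1 (2.53, adjusted p = 0.0807), A replicate 2 (2.23, adjusted p = 0.0836), P replicate 1 (2.47, adjusted p = 0.172) or P replicate 2 (2.87, adjusted p = 0.0607). Smad6 was called without either E11.5 P-CNH array (1.39, adjusted p = 0.0357). Paraxial markers were higher in P for 3 of 4 (Tbx6, Dll1 and Meox1), with sums led by Tbx6 of 4469 and 4521 against 328, 274 and 242 in A. Foxf1a, Apob and T were higher and Otx2 and Shh lower.

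Of the 37 other pathway genes 4 were higher and 2 lower in PP against A and P (1.99% and 1.57% of all probes). Tbx3 (3.53, adjusted p = 0.00334) and Hand1 (2.38, adjusted p = 0.000241) were higher, and the antagonist genes Nbl1 (−2.90, adjusted p = 0.000195) and Cer1 (−2.61, adjusted p = 7.92e-08, at least 4.43-fold) lower. Against A alone 4 were higher and 4 lower (3.14% and 3.01%), led by Fst (4.23), Tbx3 (4.16, at least 8.85-fold), Cer1 (−3.52, at least 7.20-fold) and Nbl1 (−3.51), and against P Hand1 (2.37, at least 3.48-fold) was higher and Nbl1 (−2.29) and Cer1 (−1.69, at least 2.14-fold) lower. Fst (3.77, adjusted p = 1.63e-06) was higher and Cer1 (−1.83, adjusted p = 7.41e-06) lower in P than in A.

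All 7 streak markers were called higher in PP against the mean of A and P and against A, and in P against A, while only Mixl1, 1 of 7, was called in PP against P. Their sum, led by T, was 22373 and 34802 in PP, 18052 and 18431 in P and 2490, 2728 and 1618 in A. Of 7 visceral endoderm markers 4 (Afp, Apoa2, Apob and Rbp4) were higher in PP, with sums led by Apoa1 of 37659 and 17969 against 10763 and 6066 in P and 2104, 2163 and 10890 in A. Allantois and lateral mesoderm markers were higher for 2 of 5 (Tbx4 and Hand1) and paraxial markers for 2 of 4 (Tbx6 and Dll1). Node and notochord markers gave 1 higher and 1 lower of 6, neural markers 1 lower of 3 (Otx2), and blood, surface ectoderm and endothelium 0 of 6, 7 and 6. The part of these cells was not tested.

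St5 and PP, the posterior regions of successive stages, were set against each other. In limma 0 of 7 genes were called (1.03% of all probes; median difference 0.82 against −0.06), and Bmp4 (1.55, adjusted p = 0.381), Bmp7 (1.58, adjusted p = 0.163), Id1 (0.82, adjusted p = 0.397) and Id3 (1.51, adjusted p = 0.138), 4 genes, had an unadjusted p under 0.05. Id2 was called without NSB replicate 3 (2.17, adjusted p = 0.000696). Without that array the other differences fell to 1.00 for Bmp4, 0.31 for Bmp7, 0.26 for Id1 and 0.08 for Id3. The 2 regions share no batch. Of the other pathway genes Fst was lower in St5 (−3.22, SE 0.684, adjusted p = 0.0208). Visceral endoderm markers were lower for 2 of 7, at 2080 and 2169 in St5 against the PP sums above, and Tbx4 of the allantois list was higher.

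The excess of the posterior region over its neighbours was then compared between E8.5 and E7.5. In limma 1 of 7 genes was called (1.37% of all probes higher; median 1.28 against 0.00): Bmp7, by 1.62 (SE 0.418, adjusted p = 0.0345), from −0.32 at E7.5 to 1.29 at E8.5. Of the 7 genes 5 had an unadjusted p under 0.05. Id3 gave 1.28 (adjusted p = 0.0776) and Bmp4 1.38 (adjusted p = 0.287). The difference of Bmp7 lost its call without any one of 12 arrays, with values between 1.30 and 1.81, and without the batch term (1.06, adjusted p = 0.335). Those arrays are A replicate 3, P replicate 1, PP replicates 1 and 2, CLE replicate 1, NSB replicates 1 and 3, RN replicate 2, St1 replicate 2, St5 replicates 1 and 2 and E11.5 CNH replicate 3. Id3 was called without PP replicate 1 (1.70, adjusted p = 0.0256) or either E11.5 P-CNH array (1.28, adjusted p = 0.0491).

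In this comparison 7 other pathway genes were higher and 1 lower (1.37% and 1.45% of all probes), led by Isl1 (5.49), Fst (−3.79), Gata3 (3.32) and Gata6 (3.07). Allantois and lateral mesoderm markers were higher for 3 of 5, endothelial ones for 2 of 6, and streak markers lower for 3 of 7. Rbp4 and Tbx6 were lower and Otx2 higher. The sums of the endothelial list were 949 and 653 in PP, and those of the streak list 28643 and 29273 in St5. The part of these cells was not tested.

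The regions that hold neuromesodermal progenitors, from NSB at E8.5 to the CNH at E13.5, were compared step by step, and 5 of the 35 gene differences were called. From NSB to E9.5 CNH, Id2 rose and Bmp7 fell, 1 gene in each direction (2.04% of all probes higher, 3% lower; median difference 0.42 against 0.07). Bmp7 was 7.94, 8.27 and 9.45 in NSB and 7.22 and 7.26 in E9.5 CNH, with no overlap, where 54.5% of all probes had none. Its difference was −2.07 (SE 0.436, adjusted p = 0.00460). Id2 was 8.43, 8.75 and 7.81 in NSB and 8.54 and 8.72 in E9.5 CNH. Its array values overlapped, and the difference of 2.00 (SE 0.471, adjusted p = 0.0116) rests on the batch term.

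Both calls rest on NSB replicate 3, and no batch holds both regions. Without that array Bmp7 was at −0.79 (adjusted p = 0.130) and Id2 at 0.64 (adjusted p = 0.284), and Bmp4 was called higher (1.45, adjusted p = 0.0370). Without the batch term Id2 stood at 0.30, and without E9.5 CNH replicate 2 it was at 1.91 (adjusted p = 0.0638). With the BeadChip as a random block Bmp7 was at −1.07 (adjusted p = 0.209) and Id2 at 0.77 (adjusted p = 0.558). Of the other pathway genes Fst (−5.38, adjusted p = 1.21e-06, at least 21.3-fold) and Gata6 (−2.42, adjusted p = 0.00253, at least 1.72-fold) fell and Hey1 (1.13, adjusted p = 0.0299) rose. Bmp5, detected on 1 of 3 NSB and 1 of 2 E9.5 CNH arrays, was also called higher (adjusted p = 0.0355), but its plain means were 5.41 and 6.09, and no exact fold is given. Blood markers were higher for 3 of 6 (sums led by Hba-a1 of 37271 and 37803 against 3939, 1744 and 1181 in NSB) and surface ectoderm markers lower for 3 of 7 (sums led by Krt8 of 998 and 973 against 7763, 7863 and 10082). Neural markers were lower for 2 of 3 and paraxial markers for 1 of 4. Their part was not tested.

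At the 3 steps from E9.5 to E12.5 none of the 7 genes was called, although the arrays of the stages did not overlap in 5, 6 and 0 of them, and in 77.8%, 50.3% and 19.3% of all probes. limma called 0 of 7 from E9.5 to E10.5 (0.0737% of all probes in either direction; 1 gene, Bmp7 at 1.33, with an unadjusted p under 0.05), from E10.5 to E11.5 (0.0829%; 0 genes) and from E11.5 to E12.5 (0.226%; 0 genes). The medians were −0.17, 0.35 and 0.06, beside −0.06, 0.01 and 0.02 for all probes. The first pair of these steps cross from one batch to another and hang on NSB replicate 3. Without it Bmp7 stood at 0.06 from E9.5 to E10.5, where its plain means were 7.24 and 7.37. Without the same array Bmp7 (2.05), Msx1 (1.97) and Id3 (0.94) were called higher and Id2 (−1.29) lower from E10.5 to E11.5. That fit has no batch offset for batch 1, which holds the E10.5 arrays, and no share of all probes is given for it. Without the batch term 2.86% of all probes were higher and 3.62% lower at that step. On single arrays Bmp7 was 7.64 and 7.10 at E10.5 and 9.43, 9.15 and 9.60 at E11.5. Among other pathway genes only Bmp3 was called over these 3 steps, higher at E12.5 than at E11.5 (adjusted p = 0.0395). It was detected on 1 of the 2 E12.5 arrays and on none of E11.5, which gives at least 1.05-fold.

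At E13.5, at the end of axis elongation, Bmp4, Id1 and Id3 were higher in the CNH than at E12.5, 3 of 7 genes (4.8% of all probes higher; median difference 0.89 against −0.08). Bmp4 was 9.22 and 8.84 at E12.5 and 11.77 and 10.60 at E13.5. Id1 went from 10.36 and 10.10 to 11.501 and 10.92, and Id3 from 8.77 and 8.46 to 10.17 and 10.28. In each gene both E13.5 arrays were above both of E12.5, where 42.6% of all probes had arrays apart. The rises were 2.15 for Bmp4 (SE 0.442, adjusted p = 0.00541), 0.98 for Id1 (SE 0.239, adjusted p = 0.0157) and 1.61 for Id3 (SE 0.296, adjusted p = 0.00225). Bmp7, at 9.80 and 9.46 and then 10.68 and 10.37, gave 0.89 (adjusted p = 0.0814), and Msx1 −1.15 (adjusted p = 0.256).

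Each stage has 1 array in batch 2 and 1 in batch 3, and within them the differences were 2.54 and 1.76 for Bmp4, 1.14 and 0.82 for Id1, 1.40 and 1.82 for Id3 and 0.87 and 0.92 for Bmp7, none of them called, where 0.0184% and 0% of all probes were higher. All 3 calls were lost without E12.5 CNH replicate 2 (Bmp4 1.76, adjusted p = 0.171; Id1 0.76, adjusted p = 0.294; Id3 1.28, adjusted p = 0.114). The Bmp4 rise was 1.30 without E13.5 CNH replicate 1 and 3.00 without replicate 2. Without E13.5 CNH replicate 1, Id1 lost its call (0.57, adjusted p = 0.0978) and Msx1 was called lower (−2.69, adjusted p = 0.00533). On the other E13.5 array, with 10814 detected probes the lowest of all 36, Msx1 was 8.63 against 10.95 on replicate 1. Without E13.5 CNH replicate 2 the Msx1 difference was 0.39, and it was 0.50 in batch 2 and −2.80 in batch 3. The sign of the Msx1 difference thus turns on 1 array.

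Another 6 pathway genes rose and 0 fell at E13.5, led by Nbl1 (2.35, adjusted p = 0.00338), Atoh8 (2.21, adjusted p = 0.00194, at least 2.51-fold), Msx3 (2.12, adjusted p = 0.00829, at least 3.29-fold) and Dlx3 (1.91, adjusted p = 0.0123). Endothelial markers were higher for 4 of 6 (Cdh5, Pecam1, Tek and Emcn), with sums led by Esam of 1839 and 1515 against 624 and 378. Blood markers were higher for 1 of 6, with sums led by Hba-a1 of 61628 and 23152 against 34415 and 17474, and of 7 streak markers Mesp1 was higher and Wnt3a lower. Noto of the node list and Dll1 of the paraxial list were lower. Surface ectoderm gave 0 of 7 called, although its sums led by Krt8 were 6798 and 6947 against 3413 and 3434. Their part was not tested.

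**Figure D5:**
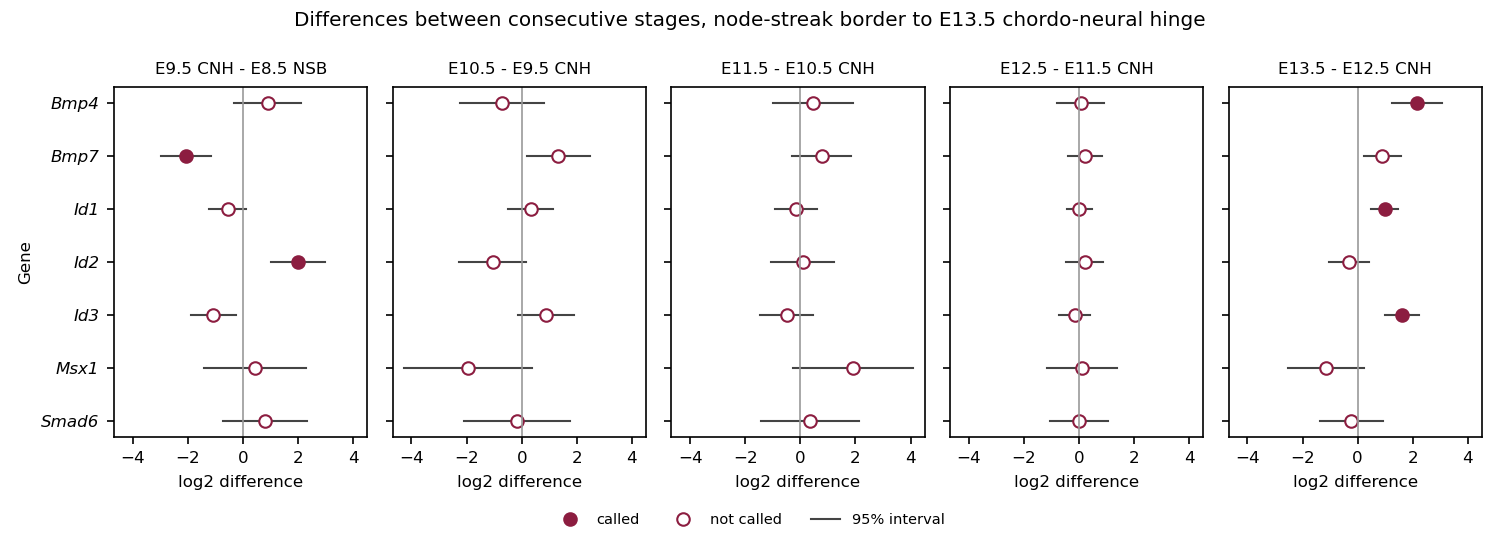
Log2 difference of each of the 7 genes over the 5 steps from NSB to E13.5 CNH, with 95% intervals as bars and filled points where the gene was called. The 5 filled points are Bmp7 (−2.07) and Id2 (2.00) at the first step and Bmp4 (2.15), Id3 (1.61) and Id1 (0.98) at the last.

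Longer intervals were also compared. Against NSB, E10.5 CNH gave 0 of 7 called in limma (7.14% of all probes in either direction; median −0.19 against −0.01), with unadjusted p-values under 0.05 for 3: Id2 (0.95, adjusted p = 0.136), Msx1 (−1.53, adjusted p = 0.252) and Bmp7 (−0.74, adjusted p = 0.265). Msx1 was 8.56 and 9.20 in E10.5 CNH, below all 3 NSB arrays, and Id2 was 9.77 and 9.30, above all 3. The arrays of these regions were apart in 44.2% of all probes. In batch 1 alone 4 were called, Id2 (0.95) and Smad6 (0.62) higher and Bmp7 (−0.74) and Msx1 (−1.53) lower, where 10.4% of all probes were higher and 9.30% lower. Of the other pathway genes 4 were higher and 2 lower, led by Fst (−5.77, adjusted p = 2.05e-09), Tob1 (2.32), Bmper (2.18, at least 2.65-fold) and Gata6 (−1.94, at least 2.60-fold). Blood markers were higher for 3 of 6 and endothelial ones for 2 of 6, and surface ectoderm and visceral endoderm markers were lower for 2 of 7 each. Otx2, Olig3, Tbx4, Mesp1 and Nkx1-2 were lower and Fgf8 higher.

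From E10.5 to E13.5 CNH limma called 0 of 7 (1.68% of all probes in either direction; median 0.87 against −0.03), with 3 unadjusted p-values under 0.05. Bmp4 was 8.11 and 7.81 at E10.5 (2.67, SE 0.709, adjusted p = 0.0594) and Bmp7 7.64 and 7.10 (1.88, SE 0.524, adjusted p = 0.0775), and Id1 was 9.82 and 9.83 (0.83, adjusted p = 0.449). In all 3 genes the arrays of the 2 stages were apart, as were 61.2% of all probes, and no batch holds both. Without NSB replicate 3 no batch offset could be fitted for batch 1, so that any batch difference enters the values. In that fit 5 genes were called: Bmp4 (3.22, adjusted p = 1.44e-05), Bmp7 (3.16, adjusted p = 4.66e-07), Id1 (1.39) and Id3 (2.39) higher and Id2 (−1.40) lower. No share of all probes is given for it. Without the batch term, which also leaves these batches uncorrected, 12.2% of all probes were higher and 11.0% lower. Bmp4 was also called without CLE replicate 1 (2.49, adjusted p = 0.0130), CLE replicate 3 (2.63, adjusted p = 0.04995) or E13.5 CNH replicate 2 (3.64, adjusted p = 0.00541), and Bmp7 without either E9.5 P-CNH array (1.97, adjusted p = 0.0228). Bmp3 (2.56, adjusted p = 0.00840, at least 3.20-fold) and Sostdc1 (2.55, adjusted p = 0.00283, at least 3.43-fold) were higher among the other pathway genes. Surface ectoderm markers were higher for 2 of 7 (Trp63 and Krt14), with sums of 1723 and 1363 at E10.5. Of 7 streak markers Mesp1 was higher and Fgf8 and Wnt3a lower, and of 6 blood markers Hbb-bh1 was lower.

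The tissue behind the hinge and the hinge itself gave no called difference in the 7 genes. Over E9.5, E10.5 and E11.5 together limma called 0 of 7 between P-CNH and CNH (0.599% of all probes in either direction; median 0.29 against −0.00), and 4 had an unadjusted p under 0.05. Id1 gave 0.57 (SE 0.143, adjusted p = 0.0904), Msx1 1.02 (SE 0.400, adjusted p = 0.767), Id3 0.46 (adjusted p = 0.739) and Id2 −0.71 (adjusted p = 0.251). Id1 had a lowest, median and highest value of 10.09, 10.65 and 11.12 on the 6 P-CNH arrays and 9.82, 10.01 and 10.25 on the 7 CNH arrays. For Msx1 these were 10.65, 10.93 and 12.62 against 8.56, 10.70 and 11.28. Both sets overlapped. Id1 was called without CLE replicate 1 (0.60, adjusted p = 0.0462) or A replicate 3 (0.61, adjusted p = 0.0322).

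At E9.5 alone (0.17% of all probes in either direction) 1 gene, Id2, had an unadjusted p under 0.05, at E10.5 (0.318%) 3, Msx1 (1.96), Id1 (0.83) and Id3, and at E11.5 (0.161%) 3, Id1 (0.76), Id3 (0.91) and Id2 (−1.12). None was called by limma. At E10.5 Id1 was 10.60 and 10.71 in P-CNH against 9.82 and 9.83, and Msx1 10.71 and 10.97 against 8.56 and 9.20. Both genes had arrays apart, as did 39.2% of all probes. In batch 1, which holds these 4 arrays, Id1 (0.83, adjusted p = 0.000646) and Msx1 (1.96, adjusted p = 0.000497) were called, where 0.778% of all probes were higher. At E9.5 in batch 2 Bmp4 gave 0.64, Msx1 1.12 and Id2 −1.04, and at E11.5 in batch 3 Id1 gave 0.80, Id3 0.87 and Id2 −1.09. Each of these fits has a group with a single array, so only sizes are given. Without E11.5 P-CNH replicate 2, Id2 (−1.54, adjusted p = 0.0356) and Id3 (1.28, adjusted p = 0.0358) were called at E11.5.

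Whether the difference changed from E9.5 to E11.5 was tested directly, and limma called 0 of 7 (0.0276% of all probes in either direction), with 1 unadjusted p under 0.05 (Id3, 1.10, adjusted p = 0.60). Of the other pathway genes Bmper was higher in P-CNH over the 3 stages (1.82, SE 0.323, adjusted p = 0.00383) and Hey1 lower (−0.59, SE 0.136, adjusted p = 0.0444). Node and notochord markers were lower for 3 of 6 (Noto, Shh and Foxa2), although the sums led by T overlapped, in order of stage 15437, 16483, 15714, 14607, 22542, 22227 and 18349 in CNH and 17721, 11833, 10870, 12437, 6760 and 19190 in P-CNH. Meox1 of the paraxial list was lower. At E10.5 Emcn of the endothelial list was also lower in P-CNH, with sums of 355 and 545 against 1149 and 1494 in CNH. The part of these cells was not tested.

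How the 7 genes vary among themselves was described by Pearson's r over the 16 fitted region means, which share the batch term and, within a stage, the embryos' age. Of 21 pairs the highest was Id1 with Id3 (0.834), then Bmp4 with Smad6 (0.719), and the lowest Id2 with Id3 (−0.168). Among 10828 genes searched, the most alike to Bmp4 were Pex26 (0.837) and Glis1 (0.813), whose rank correlations (Spearman) were lower, at 0.441 and 0.571. The most alike to Bmp7 were Grn (0.932) and Lmna (0.900), and to Id1 Tmem79 (0.854) and BC005682 (0.843). They were Arrdc3 (0.759) and Rpl26 (0.739) for Id2, Bcam (0.915) and Cln3 (0.879) for Id3, 1810064L21Rik (0.843) and 4930511J11Rik (0.797) for Msx1, and Arpc5 (0.898) and Egln3 (0.867) for Smad6. None of these was a member of the pathway lists.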

How the data were processed

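Total RNA of 36 pools of dissected pieces was measured on 6 Illumina MouseWG-6 BeadChips. The deposited values are average bead intensities per probe, not background-subtracted or normalised, each with a detection p-value that the scanner software set against negative-control beads. The authors' later steps (variance stabilisation, spline normalisation and ComBat) are not in them. Groups came from the labels. Intensities were background-corrected and quantile-normalised by neqc (offset 16) in limma 3.58.1 with R 4.3.3, in place of the authors' lumi. Of 45281 probes, 23569 not detected (p under 0.01) on any array were left out, and 21712 were tested. All 36 arrays were fitted together with region and batch (3 levels) as terms, leaving 18 residual degrees of freedom, and limma's moderated two-sided test was adjusted by Benjamini-Hochberg over all tested probes within each comparison. The code was tested on simulated data. Python 3.11.15, NumPy 2.4.6 and matplotlib 3.10.9 searched the promoters and drew the figures.

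The brightest probe stands for each gene, and other probes are given for some of the comparisons where they differ. Of the other pathway genes (further ligands, receptors, signal transducers, intracellular inhibitors, membrane and secreted antagonists, and further response genes) up to 4 called genes with the largest differences were named per comparison. The 2 most alike genes were sought among probes detected on at least 18 arrays. Cell type markers were lists for blood, visceral endoderm, surface ectoderm, endothelium, allantois and lateral mesoderm, node and notochord, neural tissue, paraxial mesoderm and streak. The genes and lists were chosen with earlier results of these data known. Alternatives changed the background correction, normalisation, filter, batch handling, array quality term, replicate block, arrays fitted and probe, and left out each array in turn.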

Additional observations from a re-analysis of the deposited data

Results flagged for a closer look

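Bmp7 stood out because its posterior difference was not the same at both stages when the change between stages was itself tested. At E7.5 the PP arrays, at 8.53 and 8.92, gave a fitted difference of −0.32 from A and P, and at E8.5 the St5 arrays, at 9.12 and 8.81, gave 1.29 over the other regions. The change was 1.62 (limma, SE 0.418, adjusted p = 0.0345). It rests on the brightest probe alone, since the other Bmp7 probe was detected on no array. The call was lost without any one of 12 of the 36 arrays (1.30 to 1.81), without the batch term (1.06, adjusted p = 0.335), with BeadChips as random blocks (1.59, adjusted p = 0.0780), with the replicate number as a block (1.23, adjusted p = 0.211) and with no filter (adjusted p = 0.0534). Of the cell-type markers, Tbx4, Foxf1a, Isl1, Cdh5, Tek and Otx2 were higher in the same comparison and Evx1, Wnt3a, Nkx1-2, Rbp4 and Tbx6 lower. The cause was not tested.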

How the results depend on the processing

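Of 33 called differences, the alternatives gave 445 values, of which 408 kept direction and call, 36 lost the call and 1 reversed, and leaving out 1 array gave 1188 values, of which 1147 kept both and 41 lost the call. Over all 168 differences 136 of 2221 values gained a call under an alternative and 45 of 6048 with 1 array left out. The count of genes called in St5 against the other E8.5 regions ran from 4 to 7 with 1 array left out and was 4 without the batch term. It was 6 with the replicate number as a block. The other counts of called genes that moved follow by setting, and the cause was not tested.

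Fitted on batch 1 alone, the counts were 3 for RN against St1, 4 for E10.5 CNH against NSB and 2 for P-CNH against CNH. Batch 2 alone gave 4 across all regions (31.6% of all probes) and 2 for P against A (1.14% higher, 0.608% lower). Batch 3 alone gave 0 across all regions (0.0829%) and 0 for PP against the rest of E7.5 (0%), so that it says little of the genes. Their residual degrees of freedom were 4 and 3. With only the arrays of the regions compared, the counts were 3 for RN against St1, 0 for PP, 2 for St5 against PP, 4 for E10.5 CNH against NSB, 6 for E13.5 against E10.5 CNH, 2 for the change in the posterior difference and 11 for consecutive stages, against 5 in the fit of all arrays. The share of all probes called higher and lower there was 25.6% and 31.2% for E13.5 against E10.5 CNH, 21.5% and 18.2%, 16.6% and 16.4%, and 10.3% and 11.0% at the first 3 steps, 0% at the last 2, and 0.0737% and 0.0322% for PP. Under that setting Id2 reversed to 0.91 from E9.5 to E10.5 CNH and to −1.29 from E10.5 to E11.5, and Id3 to 0.95 from E10.5 to E11.5, since no batch offset can be fitted between those arrays.

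Without the batch term the counts were 1 for E10.5 CNH against NSB, 4 for E13.5 against E10.5 CNH (12.2% of all probes higher and 11.0% lower, beside 1.17% and 0.516% in the fit of all arrays with it) and 0 for the change in the posterior difference. Batch means removed first gave 2 for St5 against PP, 4 for E13.5 against E10.5 CNH (5.18% and 3.70%) and 2 for the change in the posterior difference. The BeadChip as a random block (correlation 0.483) gave 1 for PP, 2 for P against A, 1 for E10.5 CNH against NSB, 4 for E13.5 against E10.5 CNH (6.07% and 5.06%), 0 for the change in the posterior difference and 3 for consecutive stages. For E13.5 against E10.5 CNH the count was 2 with no background correction, 2 with an offset of 100, 2 with each array's number of detected probes as a term and 1 with no filter. That term gave 1 for E10.5 CNH against NSB, and no filter gave 0 for the change in the posterior difference.

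The other Bmp4 probe gave 1 for PP and 2 for the change in the posterior difference. The other Msx1 probe gave 1 for PP and 0 for P against A, where its difference reversed to −0.037, but no array of A or P detected it, so that this value lies between background readings. Without the 4 arrays that detected fewest probes (CLE replicates 1 and 2, E11.5 P-CNH replicate 1 and E13.5 CNH replicate 2), a setting chosen after seeing the data, most shares of all probes rose, to 3.43% higher and 4.01% lower for P against A (1.52% and 1.21% with them) and to 5.32% and 5.14% for St5 against PP (0.474% and 0.553%). The counts were 2 for RN against St1, 3 for P against A, 3 for St5 against PP, 2 for E10.5 CNH against NSB, 2 for E13.5 against E10.5 CNH, 1 for P-CNH against CNH and 3 for the change in the posterior difference.

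With each array left out in turn the counts ran from 6 to 7 across all regions, 0 to 3 for PP, 0 to 2 for P against A, 0 to 1 for St5 against PP, 0 to 5 for E13.5 against E10.5 CNH, 0 to 1 for P-CNH against CNH, 0 to 2 for the change in the posterior difference and 2 to 8 for consecutive stages. From E10.5 to E11.5 CNH, Id2 ranged from −1.29 to 0.32 and Id3 from −0.79 to 0.94, with the reversed ends reached without NSB replicate 3. Where an array left out leaves 1 array in a region, that array is assumed to vary like the other regions.

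Same-numbered replicates were not shown to be paired: of 33 pairs, 16 had residual correlations over 0.1 (−0.318 to 0.391, median 0.0982). Among the 14 pairs of batch 1 with the same BeadChip and number of pieces 12 were over 0.1 (0.0982 to 0.391), and with the 2 such pairs of E7.5 the lowest was −0.290. In batch 1 the residuals of replicates 1 and 2 mirror each other, so each value occurs for both and the 14 pairs are not independent. The fit of batch 1 alone, with 6 residual degrees of freedom, holds no replicate term. No label says that a number marks a shared litter. The replicate block, with 10 residual degrees of freedom, gave 6 across all regions, 2 for PP, 1 for P against A, 4 for consecutive stages and 0 for the change in the posterior difference. The lowest detected log2 value per array, 5.55 to 7.19 with a median of 5.81, limits what can be said of Smad6 and of the dimmer probes.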
